A study of Mus musculus with 3 samples.

Results

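The mitochondrial carrier family Slc25 was described in ribosome-bound RNA of the mouse cerebral cortex. Members were all gene symbols of the deposited count files that match Slc25a followed by a number, whatever their count, which gave 47 genes of 32532. Each library came from the whole cerebral cortex of adult mice of the cross Htr3a-Cre (NO176)::Rosa26-LSL-EGFP/Rpl10a, in which cells that have expressed Cre make the ribosomal protein Rpl10a fused to EGFP. Ribosomes carrying the tag were pulled down through EGFP, the TRAP method, and the RNA on them was sequenced in 3 libraries of 1 immunopurified group, replicates 1, 2 and 3. No unpurified cortex was analysed here, so levels are set against other genes of the same libraries and no enrichment was computed. The tag depends on any past activity of the driver, so the labelled cells need not all express Htr3a in the adult. Separate animals are not named for the replicates, so p-values measure only the spread between these libraries, which may be technical.

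Mitochondrial carriers are small membrane proteins, nearly all of the inner mitochondrial membrane, that exchange or import metabolites which the membrane would otherwise hold back. They bring ADP and phosphate to ATP synthase, move reducing equivalents and amino acids between cytosol and matrix, and supply the matrix with cofactors, nucleotides and iron. In neurons the malate-aspartate shuttle, which rests on the carriers Slc25a12 and Slc25a11, is a main route by which cytosolic NADH reaches the respiratory chain.

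Gene counts summed to between 13951332 and 14461053 per library, of which the 47 carriers took 59565, 54788 and 50881 counts in replicates 1, 2 and 3, or 0.414%, 0.393% and 0.352%. Htr3a stood at 655, 582 and 569 TPM (transcript abundance, from counts divided by exon length, with a common sum per library), and Gad2, an enzyme that makes GABA, at 2121, 2322 and 2140 TPM. All 6 general GABAergic markers reached 1 TPM in 3 of 3 libraries. Excitatory markers summed to 3590, 3213 and 3276 TPM, with 7 of 8 at 1 TPM or more in 3 of 3 libraries, and Camk2a alone at 2885, 2426 and 2317 TPM. Astrocyte markers summed to 711, 606 and 619 TPM over 9 genes and oligodendrocyte markers to 422, 286 and 247 TPM over 9 genes. The marker sums of precursors, microglia, endothelial, mural and red blood cells lay between 3.37 and 53.6 TPM. Markers of the MGE class, another class of interneurons, had the largest sum of the marker lists at 8944, 8680 and 7912 TPM. The Htr3a class summed to 3190, 2584 and 2746 TPM. Sst alone made up most of the MGE-class sum, at 8730, 8367 and 7647 TPM (8248 ± 552). The medians went the other way, at 70.9 ± 15.5 TPM over the 6 MGE-class markers and 467 ± 45.5 TPM over the 6 of the Htr3a class. The carrier levels therefore belong to RNA in which transcripts of MGE-class interneurons, excitatory neurons and glia were also present, and in such bulk RNA fewer cells of a type and less RNA per cell cannot be told apart.

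Most of the family was present, and with merged exons as length 1 gene, Slc25a4, made up more than 50% of its summed level. Of the 47 carriers, 35 (74.5%) reached 1 TPM in 3 of 3 libraries, against 50.9% of the 23895 genes with a known length and 53.4% of 326 other solute carrier genes. At least 10 TPM in 3 of 3 libraries was reached by 22 carriers (46.8%), against 33.2% of all genes and 29.8% of other solute carriers. At least 100 TPM by merged exon length was reached by 7 (14.9%), against 7.4% and 4.91%. The median carrier stood at 17.95, 13.0 and 11.5 TPM in replicates 1, 2 and 3 (14.2 ± 3.37, SD, n = 3), against 2.002 ± 0.108 TPM for the other solute carriers and 2.07 ± 0.165 TPM for all genes. A further 7 carriers reached 1 TPM in some libraries only, and 5 stayed below 1 TPM in all 3. Values after ± are SDs over the 3 libraries throughout. Summed over the family the level was 6760, 6048 and 5214 TPM, and the 3 highest genes held 73.9% of it, the 12 highest 93.5%. These shares depend on the length assumed. In counts, without a length correction, Slc25a4 took 25986 of 59565, 21691 of 54788 and 17910 of 50881, less than 50% in each library.

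**Figure D1:**
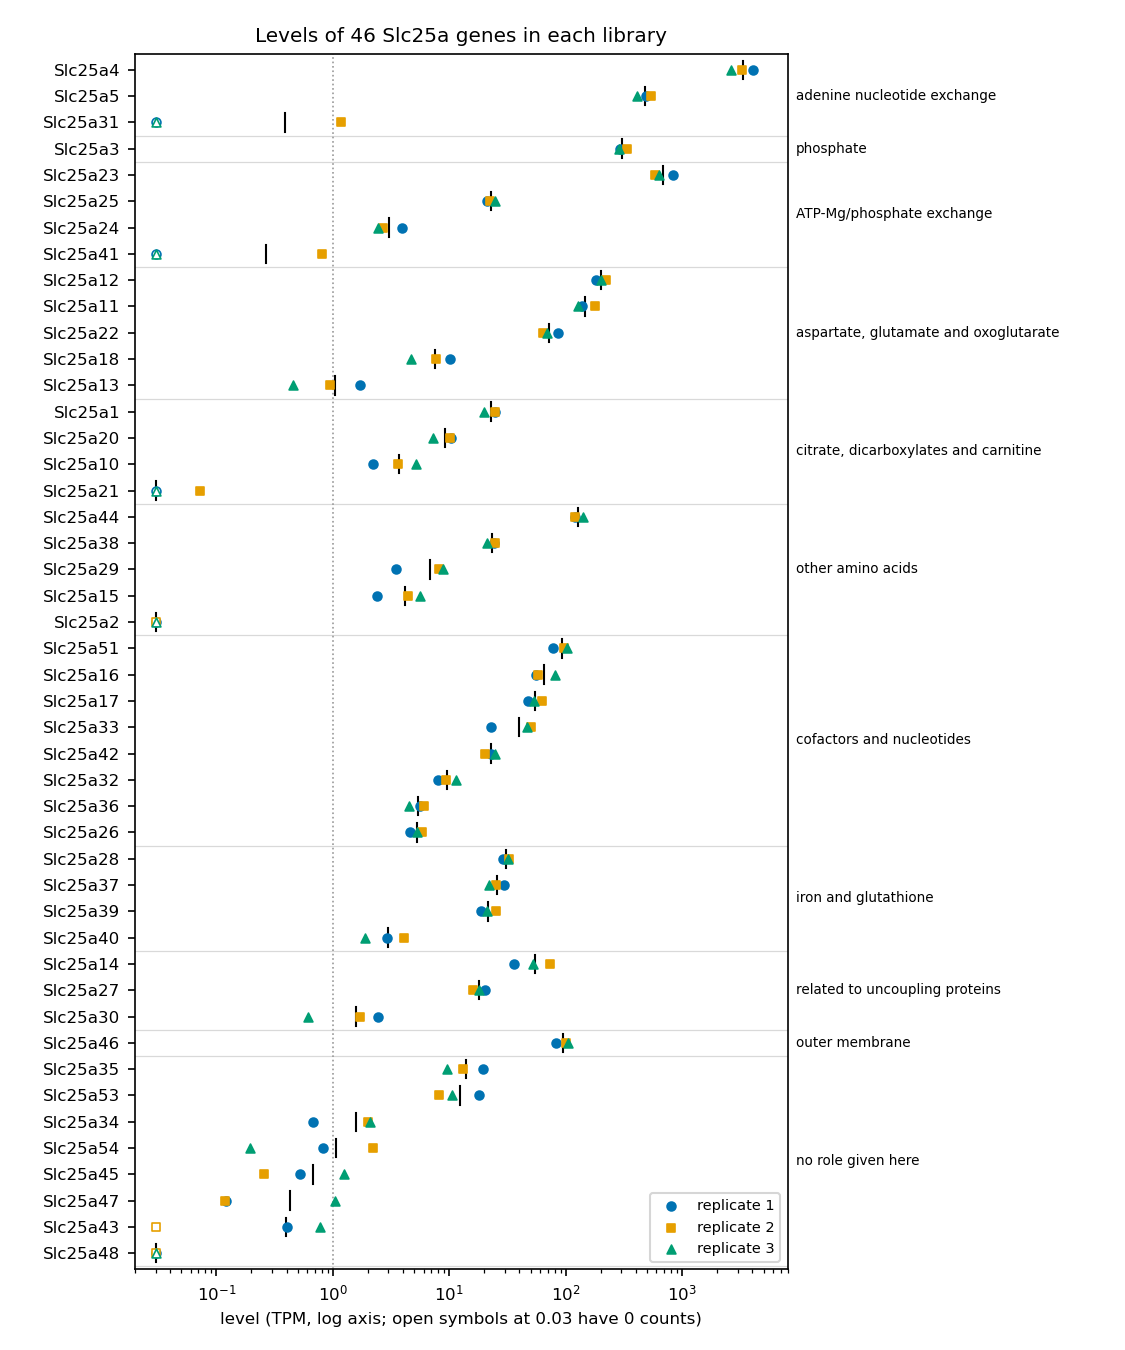
Level of each of 46 Slc25a genes in TPM on a log axis, by transport role, with 1 symbol per library and a black bar at the mean; the dotted line marks 1 TPM and open symbols drawn at 0.03 stand for 0 counts. Slc25a4 lies apart at the right, most genes sit between 1 and 100 TPM, and Slc25a2 and Slc25a48 have open symbols only.

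The adenine nucleotide carriers, which exchange matrix ATP for cytosolic ADP, held 62.6 ± 4.07% of the summed carrier level by merged exon length. Slc25a4, the isoform that predominates in heart, skeletal muscle and brain, stood at 4006, 3276 and 2635 TPM (3306 ± 686), and ranked 18th of all 23895 genes by mean level. It was highest in replicate 1 and lowest in replicate 3. Slc25a5, the isoform of many proliferating tissues, stood at 484, 535 and 407 TPM (475 ± 64.4). Slc25a4 thus lay above Slc25a5 in 3 of 3 libraries, by a difference in log2(TPM + 0.1) of 2.79 (SD 0.23), or 6.90-fold. Slc25a31, an isoform of male germ cells, had 0, 7 and 0 counts. Slc25a4 lies on chromosome 8 from 46206797 to 46211284 and Slc25a5 on chromosome X from 36795651 to 36798807 in GRCm38. Of the Slc25a5 transcript, 72.3% was at least 95% identical to stretches of 3 annotated pseudogenes, so reads from there may have been left among those without a unique place, and its level is uncertain. No other carrier had as large a share of its transcript in such copies; the next were Slc25a40 at 25.9% and Slc25a36 at 17.7%.

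The phosphate carrier Slc25a3, which brings phosphate to ATP synthase alongside these exchangers, stood at 294, 337 and 286 TPM (305 ± 27.5). Its libraries lay close together, and replicate 2 was highest. This value depends on the length assumed, since the merged exons cover 5550 nt and the principal transcript 1612 nt. With the principal transcript Slc25a3 stood at 689.5 ± 61.05 TPM, above the 414 ± 55.4 TPM of Slc25a5 on that scale, whereas with merged exons Slc25a5 was the higher in 3 of 3 libraries. The promoters of these 3 genes of ATP export and phosphate supply are given to let their sequences be compared, as 300-base windows around the RefSeq start on GRCm38.p6. Slc25a4 is read on the minus strand of chr8:46211013-46211312, Slc25a5 on the plus strand of chrX:36795347-36795646 and Slc25a3 on the minus strand of chr10:91123918-91124217. Capitals mark matches to the letters GCGCA and GCGC with any 1 base between them, a core recognised by the factor NRF1, and CCGGAAG, a core recognised by ETS factors such as GABP, on either strand. Both factors are known regulators of nuclear genes for mitochondrial proteins.
Slc25a4: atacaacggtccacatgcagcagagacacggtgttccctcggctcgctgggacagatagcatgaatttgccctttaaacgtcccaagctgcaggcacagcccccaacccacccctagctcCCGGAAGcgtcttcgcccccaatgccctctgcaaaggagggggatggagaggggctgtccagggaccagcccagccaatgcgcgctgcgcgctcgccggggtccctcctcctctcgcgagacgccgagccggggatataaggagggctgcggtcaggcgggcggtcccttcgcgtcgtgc
Slc25a5: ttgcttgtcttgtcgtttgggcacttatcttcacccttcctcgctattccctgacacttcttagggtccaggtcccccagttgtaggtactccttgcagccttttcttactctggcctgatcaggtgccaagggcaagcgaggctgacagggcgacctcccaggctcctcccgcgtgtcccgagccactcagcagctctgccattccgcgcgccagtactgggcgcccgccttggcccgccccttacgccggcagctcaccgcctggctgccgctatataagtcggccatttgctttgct
Slc25a3: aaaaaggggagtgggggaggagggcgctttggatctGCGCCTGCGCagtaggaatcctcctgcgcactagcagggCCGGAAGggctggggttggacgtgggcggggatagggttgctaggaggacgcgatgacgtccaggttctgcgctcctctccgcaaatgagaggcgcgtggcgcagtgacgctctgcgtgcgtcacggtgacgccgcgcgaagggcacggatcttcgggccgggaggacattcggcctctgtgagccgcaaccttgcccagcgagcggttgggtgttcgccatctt
The Slc25a3 window held 1 match to each motif, the Slc25a4 window 1 match to the ETS letters, and the Slc25a5 window neither. Windows were found for 36 of the 47 carriers, 46 windows in all. Of these 46, 4.35% held the NRF1 letters against 4.6% of all 32851 windows, and 15.2% held the ETS letters against 8.86%. The pentamer CCAAT was found in 47.8% against 37.4% and TATAAA in 4.35% against 13.6%. The motifs do not overlap in the windows shown. The median GC content was 59.3% in carrier windows and 52.7% in all windows, and a match is a description of letters only.

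The ATP-Mg/phosphate carriers, which load the matrix with adenine nucleotides in exchange for phosphate and are mostly regulated by calcium, took 11.8 ± 1.47% of the summed level. Slc25a23 made up nearly all of it, at 835, 584 and 627 TPM (682 ± 134), by merged exon length the 2nd highest carrier and 153rd of all genes. Replicate 1 was highest, and replicates 2 and 3 lay close to each other. With the principal transcript Slc25a23 stood at 704 ± 139 TPM, close to Slc25a3 at 689.5 ± 61.05 TPM. Slc25a25 stood at 21.1, 22.4 and 24.4 TPM (22.6 ± 1.69) and Slc25a24 at 3.91, 2.69 and 2.42 TPM (3.01 ± 0.794). Slc25a23 exceeded Slc25a25 in 3 of 3 libraries by a log2 difference of 4.89 (SD 0.35) and Slc25a24 by 7.79 (SD 0.15). With the principal transcript the differences were 4.29 and 8.42, and Slc25a25 stood at 35.5 TPM. Slc25a41, a relative that lacks the calcium-binding domain, had 0, 3 and 0 counts. The calcium-regulated members of this subfamily therefore differed from one another by far more than their libraries did.

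**Figure D2:**
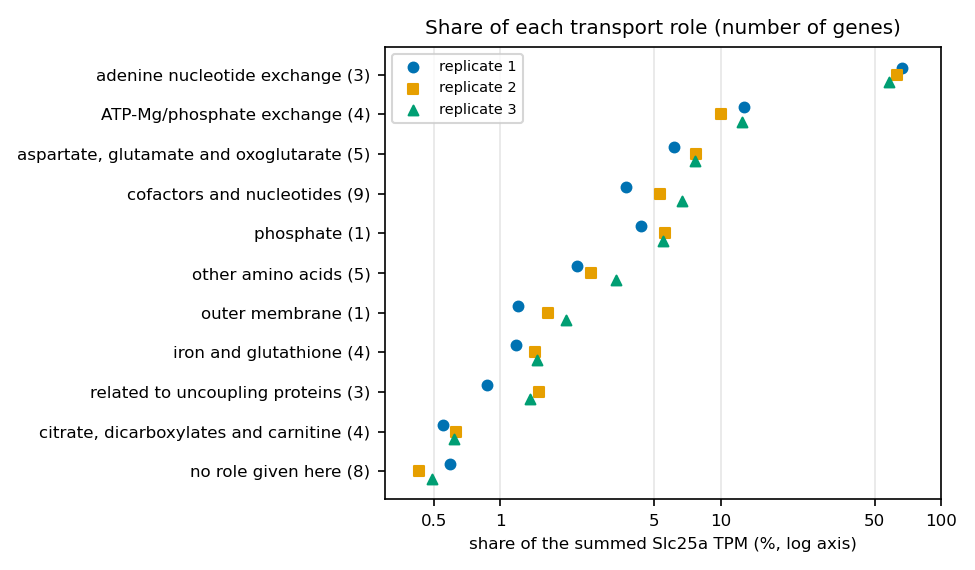
Share of the summed Slc25a level (TPM by merged exon length) in percent on a log axis, for each transport role with its number of genes, with 1 symbol per library. Adenine nucleotide exchange takes 58.3% to 66.4% of the family, and every other role takes less than 13% in each library.

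The carriers of aspartate, glutamate and oxoglutarate came next with 7.19 ± 0.897% of the level. Slc25a12, the aspartate/glutamate carrier of brain and muscle, stood at 182, 219.7 and 198 TPM (200.2 ± 18.8). Its paralogue Slc25a13, the isoform of liver, had 18, 10 and 5 counts, or 1.72, 0.936 and 0.456 TPM. Slc25a12 was thus higher in 3 of 3 libraries, with a log2 difference of 7.62 (SD 0.92) whose size is limited by the few Slc25a13 counts. Slc25a11, the oxoglutarate/malate carrier that completes the malate-aspartate shuttle, stood at 137, 178 and 127 TPM (147 ± 27.3), with replicate 2 highest. The enzymes of the shuttle were also present, with the cytosolic Got1 and Mdh1 at 1322 ± 115 and 1257 ± 365 TPM. The mitochondrial Mdh2 and Got2 stood lower, at 336 ± 14.7 and 52.0 ± 5.47 TPM. Slc25a22, a glutamate carrier, stood at 84.9, 63.1 and 69.1 TPM (72.4 ± 11.3). Its paralogue Slc25a18, known from astrocytes, stood at 10.1, 7.62 and 4.71 TPM (7.46 ± 2.68), beside a median of 12.7 ± 0.535 TPM for the astrocyte markers, whose part in it was not tested. Slc25a22 exceeded Slc25a18 in 3 of 3 libraries by a log2 difference of 3.31 (SD 0.46), and by 4.40 when the principal transcript gave the length.

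Carriers of citrate, dicarboxylates and carnitine were low as a group, at 0.598 ± 0.0445% of the level. Slc25a1, which exports citrate for lipid synthesis, stood at 24.5, 24.5 and 19.7 TPM. Slc25a20, which imports acylcarnitines for fatty acid oxidation, stood at 10.3, 10.05 and 7.22 TPM (9.20 ± 1.72). Slc25a10, the dicarboxylate carrier, stood at 2.21, 3.60 and 5.21 TPM, and Slc25a11 exceeded it in 3 of 3 libraries by a log2 difference of 5.36 (SD 0.69). The oxodicarboxylate carrier Slc25a21 had 0, 1 and 0 counts. Slc25a29, a carrier of basic amino acids and a relative of Slc25a20, stood at 3.48, 8.18 and 8.90 TPM (6.85 ± 2.94). Slc25a20 was higher in replicates 1 and 2 and lower in replicate 3, so that their log2 difference of 0.51 lay within its SD of 0.94. With the principal transcript, by which Slc25a20 stood at 16.4 TPM, the difference was 1.54 (SD 0.94), and without a length correction it was 1.38 (SD 0.93), Slc25a20 higher in 3 of 3 libraries in both cases.

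Among the other amino acid carriers, Slc25a44, a carrier of branched-chain amino acids, stood highest at 120.0, 119 and 139 TPM (126 ± 11.3). By merged exon length it was the 7th highest of the family. With the principal transcript it stood at 84.4 ± 7.68 TPM, below Slc25a22 at 101 ± 15.9 TPM. Slc25a38, the glycine carrier needed for haem synthesis, stood at 24.2, 24.6 and 21.2 TPM. The ornithine carrier Slc25a15 stood at 2.38, 4.42 and 5.60 TPM. Its relative Slc25a2 had 0 counts throughout, which leaves room for at most 0.795, 0.779 and 0.759 TPM in replicates 1, 2 and 3 if up to 3 counts went unseen, a limit of counting error only.

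Carriers of cofactors and nucleotides took 5.26 ± 1.49% of the level over 9 genes. Slc25a51, the mitochondrial NAD importer, led them at 77.8, 96.5 and 102 TPM (92.1 ± 12.7). Slc25a16, a relative of the coenzyme A carriers, stood at 55.4, 57.3 and 81.1 TPM (64.6 ± 14.3), with replicate 3 highest. The coenzyme A carrier Slc25a42 stood at 22.6, 20.4 and 24.8 TPM. Slc25a42 lay below Slc25a16 in 3 of 3 libraries, with a log2 difference of -1.49 (SD 0.21). Slc25a17, a member of the peroxisomal membrane rather than the mitochondrion, stood at 47.8, 62.8 and 53.6 TPM (54.7 ± 7.56). Of the pyrimidine nucleotide carriers, Slc25a36 stood at 5.60, 6.11 and 4.47 TPM and Slc25a33 at 22.9, 50.3 and 46.2 TPM. Their log2 difference of -2.79 (SD 0.69) went the same way in 3 of 3 libraries but was -1.92 with the principal transcript. Without a length correction it was -0.46 (SD 0.69), and Slc25a36 was then lower in 2 of 3 libraries, since the merged exons of Slc25a36 cover 9594 nt and those of Slc25a33 1887 nt. The folate carrier Slc25a32 and the S-adenosylmethionine carrier Slc25a26 stood at 9.61 ± 1.79 and 5.23 ± 0.618 TPM.

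The mitoferrins, which import iron, were close to each other in level. Slc25a28, the broadly expressed form, stood at 28.6, 32.2 and 31.9 TPM (30.9 ± 1.99). Slc25a37, the form prominent in developing red blood cells, stood at 29.2, 25.3 and 22.02 TPM (25.5 ± 3.57). Slc25a28 was the lower of them in replicate 1 and the higher in the other two libraries, and the log2 difference of 0.29 did not exceed its SD of 0.29. The direction turned with the length: with the principal transcript the difference was 1.04, Slc25a28 higher in 3 of 3 libraries, and without a length correction it was -0.40, Slc25a28 lower in 3 of 3. The red blood cell markers Hba-a2, Hbb-bs and Alas2 summed to 3.53, 3.37 and 11.1 TPM, with Hbb-bs at 0 counts in replicate 1 and Hba-a2 at 0 counts in replicate 2, and their part in the Slc25a37 level was not tested. Slc25a39, which imports glutathione, stood at 18.7, 25.01 and 20.9 TPM. Its paralogue Slc25a40 stood at 2.90, 4.07 and 1.90 TPM. Slc25a39 exceeded Slc25a40 in 3 of 3 libraries by a log2 difference of 2.88 (SD 0.45), or 2.02 with the principal transcript.

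Relatives of the uncoupling proteins took 1.25 ± 0.336% of the level. Slc25a14 and Slc25a27, both known from brain, stood at 35.8, 73.5 and 52.6 TPM (53.9 ± 18.9) and at 20.4, 15.9 and 18.1 TPM (18.1 ± 2.24). Slc25a30, described in kidney, stood at 2.46, 1.71 and 0.606 TPM. Slc25a14 exceeded Slc25a27 by a log2 difference of 1.51 (SD 0.70) and Slc25a30 by 5.12 (SD 1.22), each in 3 of 3 libraries. Under other symbols, Ucp1, the thermogenic protein of brown fat, had 0 counts in 3 of 3 libraries, Ucp3 had 1, 0 and 0 counts, and Ucp2 stood at 5.45, 1.78 and 4.46 TPM. The outer membrane relatives Mtch2 and Mtch1 stood at 34.1 ± 2.60 and 13.2 ± 3.24 TPM. Slc25a46, which lies in the outer mitochondrial membrane and is linked to optic atrophy and neuropathy in humans, stood at 81.7, 99.95 and 104 TPM (95.2 ± 11.8).

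Carriers for which no role is stated here were low, at 0.502 ± 0.0828% of the level over 8 genes. Slc25a35 and Slc25a53 led them at 14.03 ± 4.99 and 12.2 ± 5.09 TPM, and Slc25a34, Slc25a54, Slc25a45, Slc25a47 and Slc25a43 averaged between 0.395 and 1.58 TPM. Exons of the gene Rangrf on the opposite strand overlap 31.3% of the Slc25a35 exons, and as the strand setting of the counting is not given in the sources used here, reads of these genes cannot be told apart there. The same holds for 14.9% of the Slc25a33 exons and 8.92% of those of Slc25a11. Slc25a48 had 0 counts throughout, for which the same limit was 0.323, 0.316 and 0.308 TPM.

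**Figure D3:**
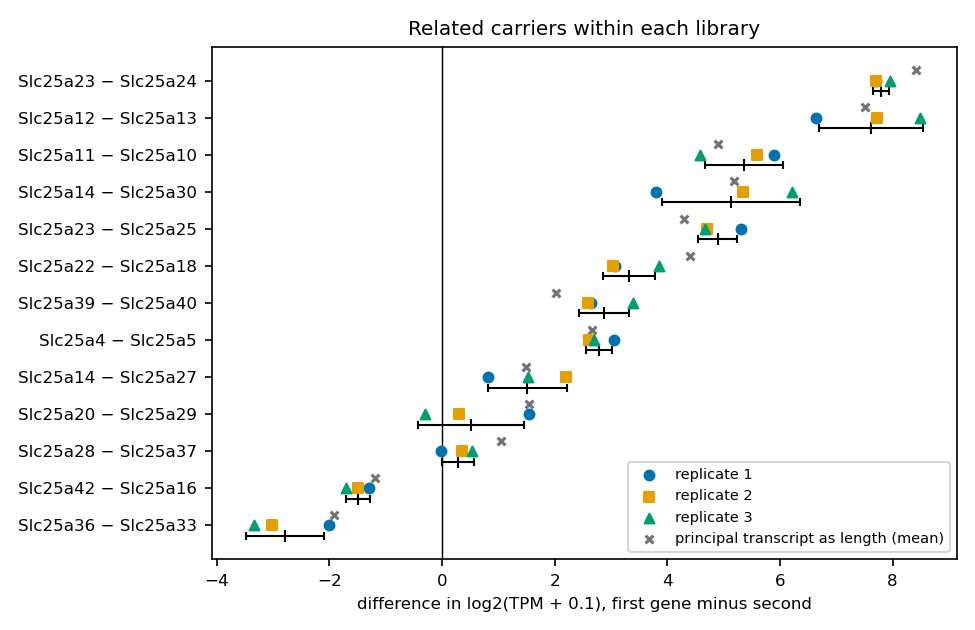
Difference in log2(TPM + 0.1) between related carriers, first gene minus second, with 1 symbol per library, the mean ± SD as a black bar below them and the mean with the principal transcript as length as a grey cross above. Symbols lie on 1 side of 0 for 11 of 13 pairs, and Slc25a20 − Slc25a29 and Slc25a28 − Slc25a37 straddle it.

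Of the 13 pairs of related carriers compared within libraries, 11 went one way in 3 of 3, the first gene higher in 9 and the second in 2. Within each of these 11 pairs the mean difference exceeded its SD over libraries. With 3 libraries a two-sided exact sign-change test cannot go below p = 0.25, which was the value for these 11 pairs, and it gave p = 0.50 for Slc25a28 − Slc25a37 and p = 0.75 for Slc25a20 − Slc25a29. In the order of levels by merged exon length, each of the 5 highest carriers lay above the next in 3 of 3 libraries. The next neighbours did not all do so: Slc25a11 and Slc25a44 differed by a log2 value of 0.21 (SD 0.36), Slc25a51 and Slc25a22 by 0.35 (SD 0.41), and Slc25a22 and Slc25a16 by 0.17 (SD 0.42), each higher in 2 of 3 libraries. The middle of the order is thus not resolved by these libraries. Near the top the order depends on the length assumed. With the principal transcript Slc25a3 lay above Slc25a5, at 689.5 against 414 TPM, and close to Slc25a23 at 704 TPM.

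The libraries were then compared with one another, to ask which carriers differed between replicates of the same group beyond counting error. Of 36 carriers with a mean of at least 1 CPM (counts scaled to the library total), 30 passed (chi-square test against scaled library sizes, adjusted p under 0.05), or 83.3%, against 74.2% of the 12949 genes tested. The other 11 carriers were too low to test. A spread of at least 1.5-fold between the highest and the lowest library, in TMM-scaled CPM, was found as well in 12 of the 36 (33.3%), against 37.4% of all genes, and the median ratio of highest to lowest library was 1.39 for the carriers and 1.41 for all genes tested. The share of carriers past the threshold was therefore near that of genes at large. Without replicate 1, 18 of 37 carriers passed and 2 of the 37 with 1.5-fold, beside 42.7% and 13.3% of all genes. Without replicate 3 the counts were 20 and 7 of 36, beside 54.9% and 21.98% of all genes. The shares thus fell for genes at large as well, and whether the carriers fell further was not tested. Among the largest ratios were those of Slc25a30 (4.18), Slc25a29 (2.48), Slc25a10 (2.30) and Slc25a15 (2.28). In the chi-square test the smallest adjusted p of these 4 was 0.000186 for Slc25a15 and the largest 0.00614 for Slc25a10. Slc25a30 rests on 31, 22 and 8 counts. The 6 tested carriers that did not pass were Slc25a28, Slc25a38, Slc25a1, Slc25a25, Slc25a26 and Slc25a24, with ratios from 1.10 to 1.66.

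**Figure D4:**
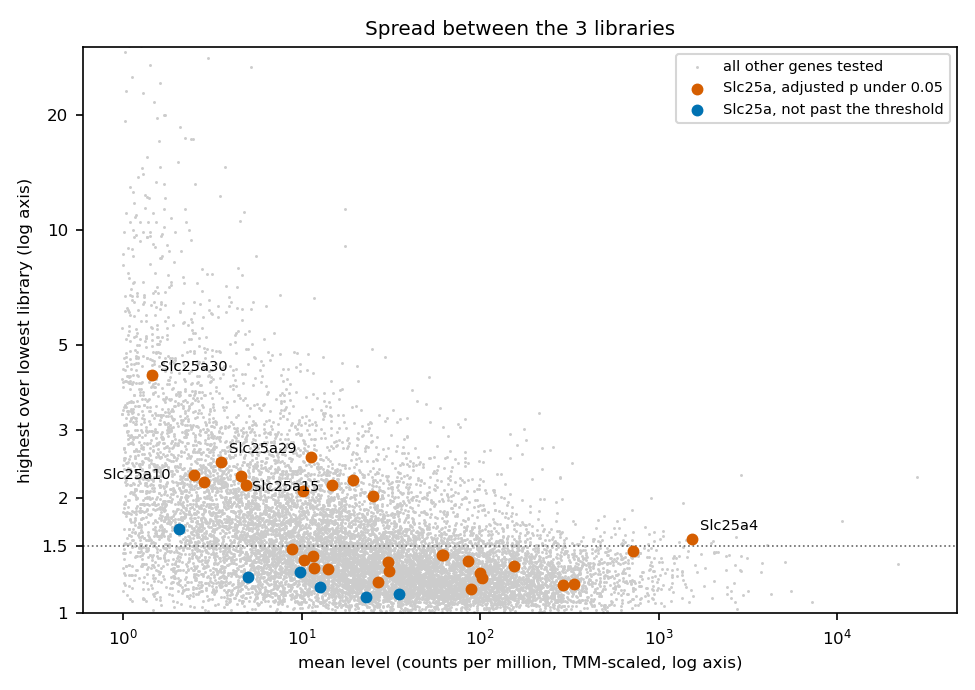
Highest over lowest library against the mean level in TMM-scaled CPM, both on log axes, for the genes tested, with the carriers in colour by the outcome of the chi-square test; the dotted line marks 1.5-fold and 14 genes with a lowest library at 0 or a ratio above 30 are not drawn. The carriers spread through the same range as the other genes, with Slc25a30 highest at 4.18 and Slc25a4 at 1.56 despite its depth.

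Replicate 1 was the highest or the lowest library for 11 of the 12 carriers past 1.5-fold, and likewise for 83.3% of the 4840 genes past it. Of 3 libraries only 1 lies between the others for a gene, so a large share is fixed in advance. The place of replicate 1 was thus not shown to be particular to the carriers. Slc25a4, Slc25a18, Slc25a30, Slc25a35 and Slc25a53 were highest in replicate 1. Slc25a10, Slc25a14, Slc25a15, Slc25a29 and Slc25a33 were among those lowest there, and Slc25a40 was highest in replicate 2 and lowest in replicate 3. The summed markers of oligodendrocytes, astrocytes, excitatory neurons and the Htr3a and MGE classes were also highest in replicate 1. Camk2a, Slc1a2 and Sst carried most of the excitatory, astrocyte and MGE-class sums, and single markers did not all follow. Of those past the threshold, 3 of 6 excitatory, 2 of 6 astrocyte and 1 of 6 MGE-class markers were lowest in replicate 1. For oligodendrocytes and the Htr3a class it was 0 of 5 each. The GABAergic sum was lowest in replicate 1, at 3141, 3339 and 3187 TPM. Within the oligodendrocyte list Mbp stood at 37.5, 37.05 and 37.3 TPM and Mobp at 32.05, 33.2 and 29.8 TPM, close together in the 3 libraries. The part of these cell types in the first set was not tested. The machinery that imports carrier proteins into mitochondria was lowest in replicate 1, with summed levels of 786, 1256 and 1289 TPM. Of its 13 genes, 11 passed the same test, against the background of 74.2%, and 10 of these 11 were lowest in replicate 1, beside 41.8% of all genes that passed. Among the small chaperones of the intermembrane space, Timm10 stood at 44.5, 95.9 and 133 TPM and Timm9 at 14.1, 24.1 and 31.9 TPM. Timm8a1, another of them, did not pass (chi-square test, adjusted p = 0.266). Nor did the insertase Timm22, at 21.8, 22.3 and 20.2 TPM (chi-square test, adjusted p = 0.527). Agk passed in the other direction, highest in replicate 1 at 12.6, 10.6 and 7.66 TPM (chi-square test, adjusted p = 1.31e-09). What sets replicate 1 apart, and its part in these carrier values, was not tested.

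**Figure D5:**
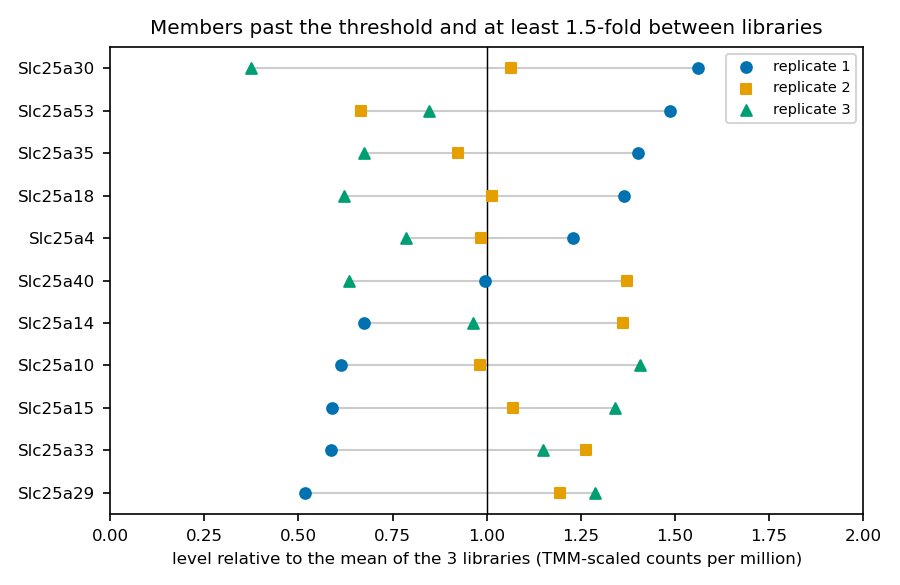
Level of each of 11 carriers past the threshold and at least 1.5-fold between libraries, relative to its own mean over the 3 libraries, from TMM-scaled CPM, with 1 symbol per library. Replicate 1 lies at the right for the upper 5 genes and at the left for the lower 5, with Slc25a40 between them.

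Other mitochondrial transport genes gave a scale for the carriers. The porins of the outer membrane, Vdac1, Vdac2 and Vdac3, stood at 437 ± 66.2, 172 ± 30.2 and 56.2 ± 10.6 TPM. The pyruvate carrier subunits, which belong to another protein family, stood lower, with Mpc2 at 24.6 ± 9.80 TPM and Mpc1 at 4.74 ± 1.96 TPM. With the principal transcript as length Mpc2 stood at 116 TPM and Vdac3 at 148 TPM, so their place beside the carriers depends on the length assumed. All 5 of these genes passed the test between libraries, against 74.2% of all genes. Of the calcium uniporter genes, the neuronal regulator Micu3 stood at 257, 293 and 271 TPM, above the pore subunit Mcu at 17.8, 17.1 and 17.5 TPM. Mcu did not pass the test between libraries (chi-square test, adjusted p = 0.730), and 4 of the 5 uniporter genes tested did, a share near that of all genes.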

How the data were processed

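Ribosome-bound RNA of 3 immunopurified libraries was analysed. The authors deposited raw counts for each gene symbol. The submitters' processing notes list STAR 2.0.0e, HTSeq and mm10 but not their order. For annotation, counting mode and strand, settings were not given in the sources used here. The 5 lines that name no gene, 25.1% to 28.8% of records, were left out. They include 11.2% to 13.1% without a unique alignment.

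TPM was computed from the counts and merged exon lengths of GENCODE M21 (GRCm38), which matched 23161 symbols directly and 734 by an older name. Each library has 1 file, and 3 counts correspond to 0.207 to 0.215 CPM. Differences between libraries were tested by chi-square, gene by gene, against TMM-scaled library sizes (edgeR 4.0.16), with Benjamini-Hochberg adjustment over all genes of at least 1 CPM on average; DESeq2 1.42.0 size factors served as an alternative. The script was tested on simulated data. Pairs were compared on log2(TPM + 0.1). Near-identical transcripts were found with BLAST 2.17.0, from matches of at least 100 nt. Software was matplotlib 3.10.9, SciPy 1.17.1, NumPy 2.4.6 and pandas 2.3.3 under Python 3.11.15, beside R 4.3.3. Levels are printed per library for the 12 highest carriers, the paired genes, those at 0 counts and the 5 with the largest ratio between libraries, of which 1 is not reported here. Members, lists, pairs and motifs were chosen with earlier results of these data known. The symbols Timm29 and Mcub were matched by older names, and Hba-a1 and Hbb-bt were not analysed here.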

Additional observations from a re-analysis of the deposited data

How the results depend on the processing

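Levels compared between genes depend on the length assumed. With the longest principal transcript, an alternative chosen after seeing the data, 7 carriers stood over 1.5 times higher, Slc25a3 the most at 2.26 times, and 5 over 1.5 times lower, while 35 still reached 1 TPM. Under the alternatives tried, no pair that went one way in 3 of 3 libraries reversed on average. The number of one-way pairs was 11 to 13, and 11 to 12 with 1 library left out. The median carrier stood at 22.96 TPM over members of at least 1 CPM only, and between 12.3 and 15.5 TPM with 1 library left out, when 35 to 36 carriers reached 1 TPM. Carriers past the threshold between libraries were 29 to 30 of 36 under other scalings (74.7% to 75.1% of all genes). They were 32 of 45 with no filter (59.3% of all genes) and 12 of 36 with the added 1.5-fold rule (37.4% of all genes). With 1 library left out they were 18 to 25 (42.7% to 62.3% of all genes). With the 1.5-fold rule 2 to 11 passed when a library was left out, beside 13.3% to 28.9% of all genes, which leaves fewer samples to differ. No paired analysis was possible because the study has 1 group. Below about 10 counts, as for Slc25a13 in replicate 3, ratios are limited by depth.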
